A study of Mus musculus with 4 samples.

Results

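Polycomb complexes were examined here through the transcripts of their subunits in mouse embryonic stem cells (ESCs) before and after differentiation with retinoic acid (RA). The set held 35 subunit genes, chosen by gene symbol, of the 24421 genes in the count files. All 35 had counts in every library. The Undiff state was the R1 mouse ESC line before RA, and the Day4 state was the same line after 4 days of RA at 2 µM, the dose in the series text and the methods (a treatment label gives it in mM). The methods describe Undiff as cells maintained with leukaemia inhibitory factor (LIF) and Day4 as embryoid bodies that spent a preceding period without LIF, while the results text and the labels speak of embryoid bodies for both states. LIF withdrawal, time in culture, growth as embryoid bodies (by the methods) and RA therefore cannot be told apart in these libraries. Each state had 2 biological replicates, grown and treated separately, and each replicate gave 1 TruSeq short-read library. The 4 libraries held 32099074 to 47730944 counts on genes.

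Polycomb group proteins keep developmental genes silent by modifying the histones of their chromatin. Polycomb repressive complex 2 (PRC2) methylates histone H3 on the lysine that gives H3K27me3, through an EZH enzyme bound to SUZ12 and EED. Polycomb repressive complex 1 (PRC1) attaches ubiquitin to histone H2A through a RING protein paired with a PCGF protein. Canonical PRC1 adds a CBX protein, which reads H3K27me3, and a PHC protein, which helps complexes cluster, whereas variant PRC1 carries RYBP or YAF2 in place of CBX. The Polycomb deubiquitinase PR-DUB, built from BAP1 and an ASXL protein, removes the mark that PRC1 sets. Many of these positions can be filled by alternative gene products, and in ESCs the composition of the complexes is known to differ from that in differentiated cells.

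The promoters of the genes with the most extreme changes are shown first, to give their base composition. RefSeq entries on GRCm38.p6 were found for 31 of the 35 members, all but Pcgf1, Cbx2, Rybp and Yaf2. The 250 bases before the start held a median of 22 CG dinucleotides and 66.4% G and C in the 31 members, beside a median of 6 and 52.4% over all 32851 promoters of the table. The next lines give the 100 bases before the start, 5′ to 3′ on the gene's own strand with CG in capitals, for the members with the highest log2 fold changes (Cbx8 and Bmi1) and the lowest (Cbx7 and Phc1).
Cbx8, chr11:119040914-119041013, minus strand: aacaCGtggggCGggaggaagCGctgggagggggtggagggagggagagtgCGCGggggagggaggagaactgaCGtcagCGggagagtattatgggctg
Bmi1, chr2:18676918-18677017, plus strand: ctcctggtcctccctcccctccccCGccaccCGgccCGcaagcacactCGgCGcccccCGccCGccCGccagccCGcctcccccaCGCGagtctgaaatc
Cbx7, chr15:79932647-79932746, minus strand: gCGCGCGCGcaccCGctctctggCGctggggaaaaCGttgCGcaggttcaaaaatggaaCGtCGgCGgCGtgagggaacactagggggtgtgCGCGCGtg
Phc1, chr6:122340228-122340327, minus strand: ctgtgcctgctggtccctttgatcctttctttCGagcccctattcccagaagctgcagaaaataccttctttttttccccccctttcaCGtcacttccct

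Cbx8, Bmi1 and Cbx7 held 22, 21 and 23 CG dinucleotides in the full 250 bases, and Phc1 held 8. The RefSeq starts used for Cbx7, Cbx8 and Phc1 lie within the GENCODE genes, and the whole windows of Cbx7 and Phc1 do so too. The Cbx7 window is far inside its gene, whose outer 5′ end is at chr15:79971119. The letters bound by E2F factors, which drive cell-cycle genes, were searched on both strands as TTTCCCGC, TTTGGCGC, TTTCGCGC and TTTGCCGC. They were present in the 250 bases of 2 of the 31 members (6.45%), Suz12 and Phf19, beside 611 of all 32851 promoters (1.86%). Every string searched contains CG, and the members held a median of 22 CG dinucleotides against 6 over all promoters. The shares are thus not matched for base composition. The matches are printed below in capitals. A match of letters is a description and not a binding site.
Suz12, chr11:79992867-79992914, plus strand: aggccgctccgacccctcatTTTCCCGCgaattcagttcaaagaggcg
Phf19, chr2:34914157-34914204, minus strand: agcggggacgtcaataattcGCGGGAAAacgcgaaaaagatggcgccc

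Most Polycomb genes differed between the states, and they did so in both directions. Values are normalized counts (counts scaled to a common library size) unless a level per kb is named, and changes are log2 fold changes of Day4 over Undiff with their standard error (SE). A differentially expressed gene (DEG) had an edgeR adjusted p-value of at most 0.05, a log2 fold change of at least 1 in size and a mean of at least 5. Of the 35 members, 8 were DEGs higher in Day4 (22.9%) and 12 were DEGs lower (34.3%), beside 22.2% and 20.6% of the 19891 genes tested. By the adjusted p-value alone, 15 rose (42.9%) and 17 fell (48.6%), beside 37.9% and 37.7% of all genes, and Rbbp4, Aebp2 and Pcgf2 did not pass. The normalized counts of the states did not overlap in 33 members, beside 85.4% of all genes tested. The states differed this widely across the transcriptome, so the counts of called members are close to the background in the upward direction. Among the 11325 genes with a mean at or above that of the lowest member the shares were 24.9% and 17.7% for DEGs, and 48.7% and 41.6% by adjusted p-value. The median size of the change was 1.30 in the members and 0.83 in these 11325 genes, while the median signed change was -0.05 and 0.11. Counts of RNA from whole cultures cannot tell fewer cells of a type from less RNA per cell.

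**Figure D1:**
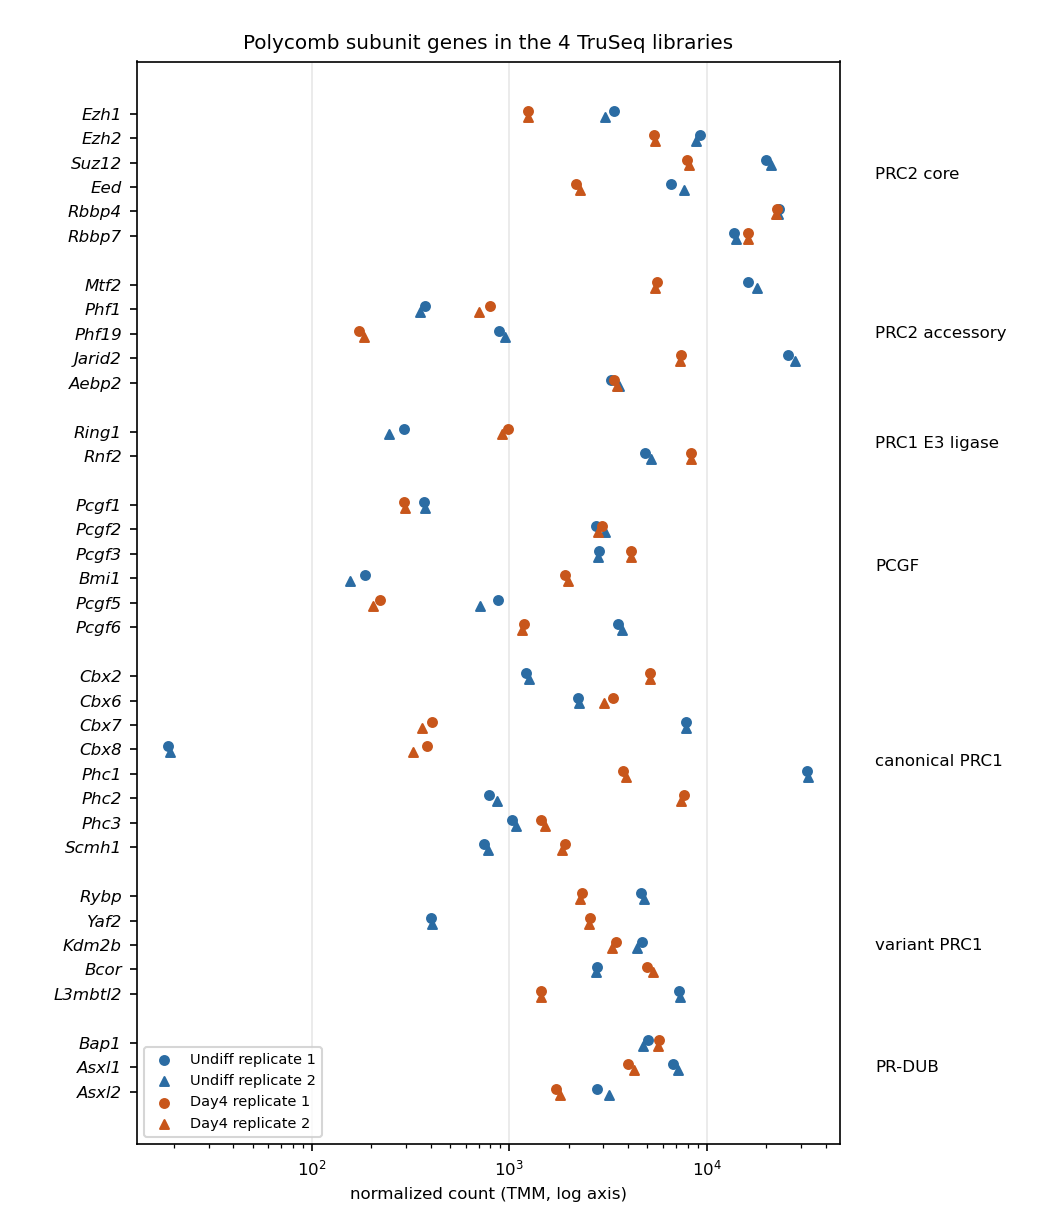
Normalized counts (log axis) of the 35 Polycomb subunit genes in the 2 Undiff (blue) and 2 Day4 (orange) libraries, circles for replicate 1 and triangles for replicate 2, grouped by complex. The states lie apart in 33 of the 35 genes, and overlap in Aebp2 and Pcgf2.

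The labelled state of the cells was checked on marker genes. All 8 pluripotency markers were DEGs lower in Day4, with a summed level of 169639 to 169959 in Undiff and 716 to 829 in Day4, and none was at 0 in any library. Endoderm markers were all 8 higher, with a sum of 1184 to 1275 in Undiff and 23536 to 23743 in Day4, and Afp was at 0 in both Undiff libraries. Most of the Day4 sum came from Gata4 (9528 and 9714) and Gata6 (10570 and 10070). Sox17 (141 and 162), Foxa2 (44.92 and 66.8) and Afp (84.61 and 38.39) stayed low in Day4. Of 8 neural markers, 2 were DEGs higher and 3 lower. The same counts were 5 and 1 of 8 mesoderm and cardiac markers, 4 and 1 of 6 blood and endothelial markers, 0 and 2 of 6 trophoblast markers, and 5 and 2 of 7 fibroblast markers. All 12 proliferation markers fell by adjusted p-value and 4 were DEGs, with a sum of 223951 to 228910 in Undiff and 109807 to 115035 in Day4 and a median log2 fold change of -0.87. These shifts accompany every result below, and their part in the results was not tested.

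PRC2 transcripts were mostly lower in Day4. Of its 11 members, 6 were DEGs lower (54.5%) and 1 was a DEG higher (9.09%), beside 20.6% and 22.2% of all genes tested and 17.7% and 24.9% of those at or above the lowest member's mean. The median log2 fold change was -1.36. Their summed normalized counts were 122962 and 128884 in Undiff and 72866 in each Day4 library. The 4 genes that make the catalytic core all fell, and the histone-binding subunits Rbbp4 and Rbbp7, which other chromatin complexes also use, did not pass as lower.

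Suz12, the scaffold of PRC2, had 20070 and 21170 normalized counts in Undiff and 7935 and 8109 in Day4. It fell by 1.36 on the log2 scale (SE 0.04, edgeR adjusted p = 2.9e-12), with every Day4 library below every Undiff library. Eed, whose product binds H3K27me3 and stimulates the enzyme, had 6604 and 7665 counts in Undiff and 2170 and 2273 in Day4, a log2 fold change of -1.68 (SE 0.07, edgeR adjusted p = 3e-11). The 2 Undiff libraries of Eed differed more from each other than those of most members, with an SD of 750 around a mean of 7134, and the gap to Day4 was several times wider. Exons of Eed share 12.6% of their length with the neighbouring E230029C05Rik, and reads there are uncertain where counting did not use the strand.

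The enzymes fell by unequal amounts. Ezh2, the main H3K27 methyltransferase of dividing cells, had 9255 and 8832 counts in Undiff and 5438 and 5474 in Day4. Its change of -0.73 (SE 0.04, edgeR adjusted p = 2.4e-09) passed the test but not the fold threshold of a DEG. Ezh1, the less active enzyme known from resting cells, had 3409 and 3044 counts in Undiff and 1242 and 1241 in Day4, a change of -1.38 (SE 0.06, edgeR adjusted p = 1.2e-10). Both enzymes thus fell, and Ezh1, the paralogue associated with non-dividing cells, fell further. Ezh2 was the more abundant per kb of exon in both states, at 86.2 CPM (counts scaled to the library size) per kb in Undiff and 52.0 in Day4, beside 14.2 and 5.45 for Ezh1. The share of Ezh1 in the pair was 14.5% and 13.7% in Undiff and 9.52% and 9.46% in Day4.

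Rbbp4 did not pass the test, with 23320 and 23040 counts in Undiff and 22580 and 22320 in Day4 (log2 fold change -0.05, SE 0.04, edgeR adjusted p = 0.26). The libraries of the states did not overlap, but the gap was a few percent. Its paralogue Rbbp7 had 13780 and 14050 counts in Undiff and 16120 and 16270 in Day4, a small rise of 0.22 (SE 0.04, edgeR adjusted p = 1.3e-04). Per kb they were the 2 most abundant members in Day4, at 184 CPM per kb for Rbbp7 and 136 for Rbbp4. Exons shared with a neighbouring counted gene make up 11.8% of the length of Rbbp4 (Sync) and 7.4% of that of Rbbp7 (Txlng).

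The accessory subunits of PRC2 help to recruit it to chromatin and define its forms. Jarid2 and Aebp2 mark one form, PRC2.2, and the Polycomb-like genes Mtf2, Phf1 and Phf19 mark the other, PRC2.1. Of these 5 genes 3 were DEGs lower (60%) and 1 was a DEG higher (20%), beside 20.6% and 22.2% of all genes tested. Aebp2 did not pass the test. Jarid2 had 25740 and 28110 counts in Undiff and 7417 and 7324 in Day4, a log2 fold change of -1.87 (SE 0.05, edgeR adjusted p = 4e-13). Aebp2 had 3278 and 3593 in Undiff and 3394 and 3530 in Day4 (0.01, SE 0.05, edgeR adjusted p = 0.83). The 2 partners of PRC2.2 therefore did not move together, and the share of Aebp2 among their counts per kb was 8.77% and 8.79% in Undiff and 25.7% and 26.7% in Day4.

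Among the Polycomb-like genes, Mtf2 was the most abundant in both states and fell from 16250 and 18080 counts in Undiff to 5601 and 5441 in Day4 (-1.64, SE 0.05, edgeR adjusted p = 3.9e-12). Phf19 had 882.6 and 947.6 counts in Undiff and 173.4 and 182.7 in Day4, and its change of -2.35 (SE 0.09, edgeR adjusted p = 2.1e-11) was the lowest of the PRC2 members. Phf1 went the other way, with 375.1 and 354.2 counts in Undiff and 796 and 701 in Day4 (1.03, SE 0.09, edgeR adjusted p = 1.4e-07). The rise of Phf1 passed in every setting, but it lies on the fold threshold, and its log2 fold change was 0.94 without Day4 replicate 1 and 0.99 without Undiff replicate 2, where it was no DEG. Phf1 made up 3.24% and 2.77% of the 3 genes' counts per kb in Undiff and 17.4% and 16.0% in Day4. Mtf2 still held 80.4% of them on average in Day4, after 91.7% in Undiff, while their summed level went from 117 and 129 CPM per kb to 46.1 and 44.2. Exons of Mtf2 share 9.7% of their length with Tmed5 on the other strand.

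**Figure D2:**
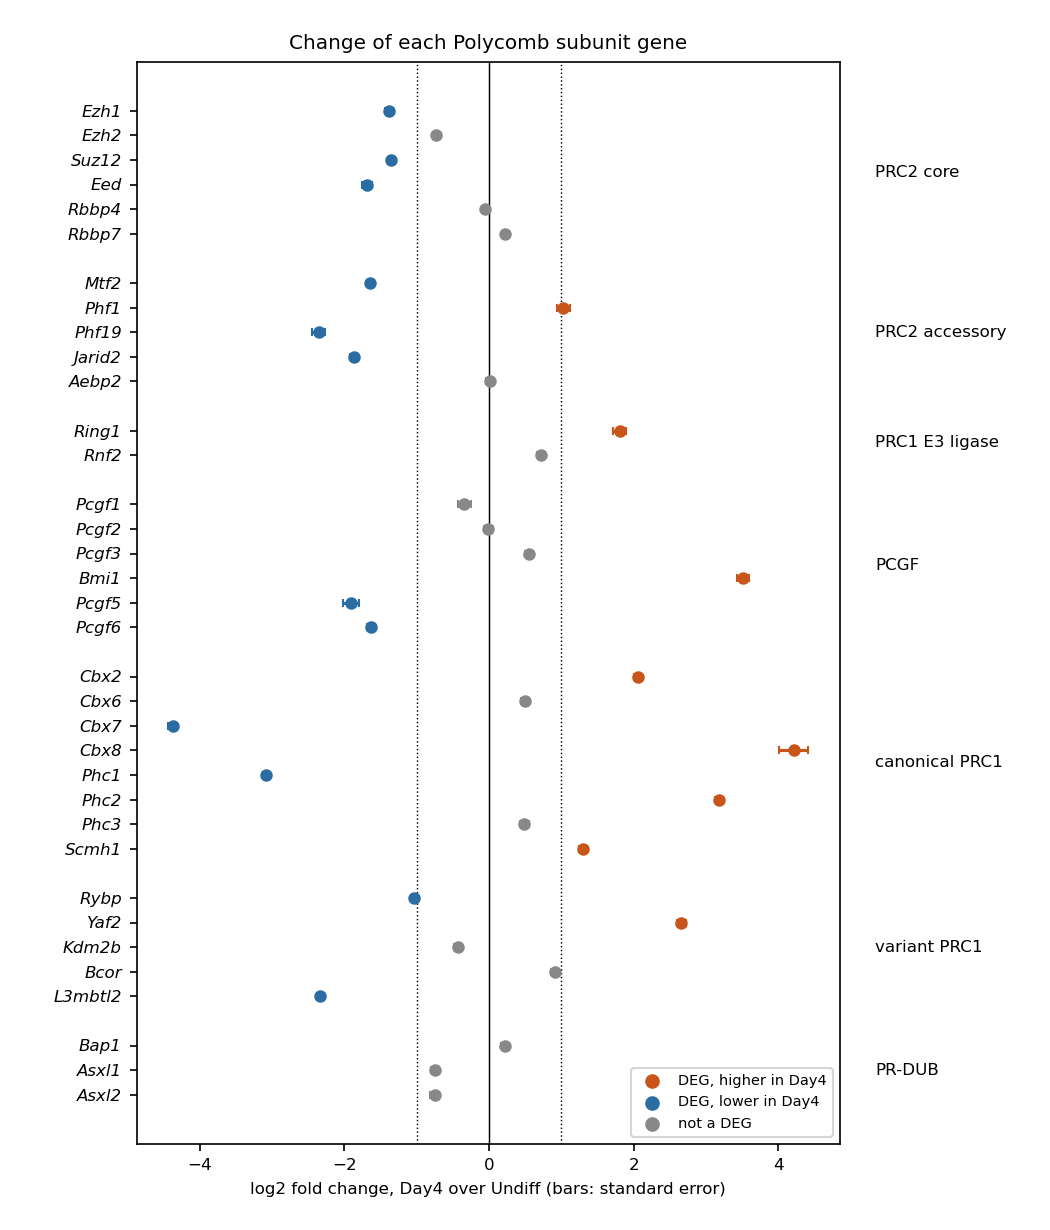
Log2 fold change of Day4 over Undiff for each of the 35 genes, with bars of 1 standard error from edgeR, in orange for DEGs higher, blue for DEGs lower and grey for the rest, and dotted lines at the DEG threshold of 1. PRC2 genes lie mostly to the left, and the canonical PRC1 genes spread from -4.37 (Cbx7) to 4.21 (Cbx8).

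PRC1 transcripts moved in both directions, as did those of all genes. Of its 21 members, 7 were DEGs higher (33.3%) and 6 were DEGs lower (28.6%), beside 22.2% and 20.6% of all genes tested and 24.9% and 17.7% of those at or above the lowest member's mean. The median log2 fold change was 0.50 and the median size 1.63. The summed normalized counts of PRC1 were nevertheless lower in Day4, as were those of PRC2. They were 81514 and 82738 in Undiff and 58913 and 58254 in Day4. Within families of alternative subunits, some genes rose while others fell. In the canonical subunits all 8 genes passed the test, 4 as DEGs higher and 2 as DEGs lower, and the median size was 2.57. Their summed counts were 46032 and 46716 in Undiff, mostly from Phc1, and 24083 and 23501 in Day4, a smaller fall than that of Phc1.

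Both E3 ligase genes rose. Rnf2, which encodes RING1B, the main H2A ubiquitin ligase of ESCs, had 4842 and 5231 counts in Undiff and 8298 and 8294 in Day4 (0.72, SE 0.05, edgeR adjusted p = 6.6e-09), short of the DEG threshold. Ring1, which encodes RING1A, had 292.8 and 246.5 counts in Undiff and 983 and 919 in Day4, a log2 fold change of 1.81 (SE 0.09, edgeR adjusted p = 4.3e-10). Rnf2 remained the more abundant of the pair, and Ring1 went from 9.05% and 7.19% of their counts per kb to 16.3% and 15.4%. Their summed level was 42.5 and 45.0 CPM per kb in Undiff and 79.2 and 78.3 in Day4, the only one of the 6 families summed here that was higher in Day4.

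PCGF proteins pair with the RING subunit and set which PRC1 is made. PCGF2 (MEL18) and BMI1 (PCGF4) go into canonical PRC1, and the others into variant forms. Bmi1 had 186.5 and 155.5 counts in Undiff and 1925 and 1990 in Day4, which was 11.4-fold higher (log2 fold change 3.51, SE 0.08, edgeR adjusted p = 2.8e-13). Pcgf2 showed no difference beyond its spread, with 2747 and 3048 counts in Undiff and 2958 and 2801 in Day4 (-0.01, SE 0.06, edgeR adjusted p = 0.89). Bmi1 thus went from 4.95% and 3.77% of the pair's counts per kb in Undiff to 33.3% and 35.3% in Day4, with Pcgf2 still the more abundant.

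The variant PCGF genes split. Pcgf6, a subunit of the complex that holds E2F6, MGA and L3MBTL2, was the most abundant PCGF gene in Undiff and fell from 3562 and 3713 counts to 1190 and 1155 in Day4 (-1.63, SE 0.05, edgeR adjusted p = 4.7e-12). Pcgf5 had 875.3 and 711.9 counts in Undiff and 220.4 and 205 in Day4 (-1.91, SE 0.11, edgeR adjusted p = 2e-09). Pcgf3, the closest relative of Pcgf5, rose from 2856 and 2802 counts to 4126 and 4158 (0.55, SE 0.05, edgeR adjusted p = 9.4e-08). Pcgf1, which joins KDM2B and BCOR, had 367.9 and 375.7 counts in Undiff and 292.5 and 295.6 in Day4, a small decrease (-0.34, SE 0.09, edgeR adjusted p = 0.0042).

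Summed over the 6 PCGF genes, the level was 93.2 and 97.0 CPM per kb in Undiff and 77.5 and 76.2 in Day4, so the makeup shifted more than the total. Pcgf6 held 47.3% of the family's counts per kb in both Undiff libraries and 19.0% and 18.8% in Day4. Bmi1 went from 1.45% and 1.16% to 17.9% and 18.9%. Pcgf2 was first in Day4 with 36.0% and 34.6%, after 27.8% and 29.6% in Undiff, while its own count did not pass the test. Its lead rests on the division by exon length. Before that division Pcgf3 had more normalized counts in Day4 (4126 and 4158) than Pcgf2 (2958 and 2801).

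The CBX genes held both the lowest and the highest log2 fold change of the 35. Cbx7, known as the main CBX of pluripotent ESCs, had 7894 and 7862 counts in Undiff and 406.4 and 360.8 in Day4. It was 20.7-fold lower in Day4 (-4.37, SE 0.06, edgeR adjusted p = 2.5e-15). Cbx8 had 18.76 and 19.14 counts in Undiff and 384.4 and 325.5 in Day4, which was 18.5-fold higher (4.21, SE 0.20, edgeR adjusted p = 2.1e-10). Its Undiff values rest on the fewest counts of any member, down to 16 reads in a library, well above the floor of 3 counts. Cbx2, whose product compacts chromatin, had 1217 and 1260 counts in Undiff and 5174 and 5165 in Day4 (2.06, SE 0.05, edgeR adjusted p = 3e-13). Cbx6 rose less, from 2235 and 2245 counts to 3342 and 3016 (0.50, SE 0.06, edgeR adjusted p = 2.3e-06).

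Of the counts per kb of these 4 CBX genes, Cbx7 held 76.6% and 76.2% in Undiff and 5.52% and 5.11% in Day4. Cbx2 held 10.6% and 10.9% in Undiff and 62.9% and 65.4% in Day4. The share of Cbx6 went from 12.7% in each Undiff library to 26.6% and 25.1%, and that of Cbx8 from 0.173% and 0.176% to 4.97% and 4.39%. The sum of the family was 80.9 and 81.0 CPM per kb in Undiff and 57.7 and 55.4 in Day4. In position the genes form pairs of neighbours. Cbx2 (chr11:119022962-119031270, plus strand) and Cbx8 (chr11:119036305-119040969, minus strand) lie next to each other on GRCm38 and both rose, whereas Cbx6 (chr15:79823896-79834688, minus strand) and Cbx7 (chr15:79915807-79971119, minus strand) lie close together and moved in opposite directions. Exons of Cbx6 share 9.7% of their length with Npcd.

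The PHC genes, which encode the polyhomeotic subunits, exchanged places as well. Phc1 was the most abundant member of all in Undiff, at 200 CPM per kb, with 32090 and 32610 normalized counts there and 3786 and 3889 in Day4. It was 8.43-fold lower in Day4 (-3.08, SE 0.04, edgeR adjusted p = 1.7e-15). Phc2 had 789.9 and 865.1 counts in Undiff and 7635 and 7377 in Day4, 9.08-fold higher (3.18, SE 0.06, edgeR adjusted p = 1.9e-14). Phc3 rose from 1036 and 1082 counts to 1447 and 1518 (0.49, SE 0.06, edgeR adjusted p = 5.3e-06). Phc1 held 96.5% and 96.3% of the family's counts per kb in Undiff and 31.6% and 32.8% in Day4, and Phc2 went from 2.39% and 2.57% to 64.0% and 62.5%. The rise of Phc2 did not offset the fall of Phc1, since the summed level was 206 and 210 CPM per kb in Undiff and 74.4 and 73.5 in Day4. Scmh1, a further canonical PRC1 subunit that binds PHC proteins, rose from 748.2 and 776.5 counts to 1910 and 1851 (1.30, SE 0.06, edgeR adjusted p = 1.7e-10).

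**Figure D3:**
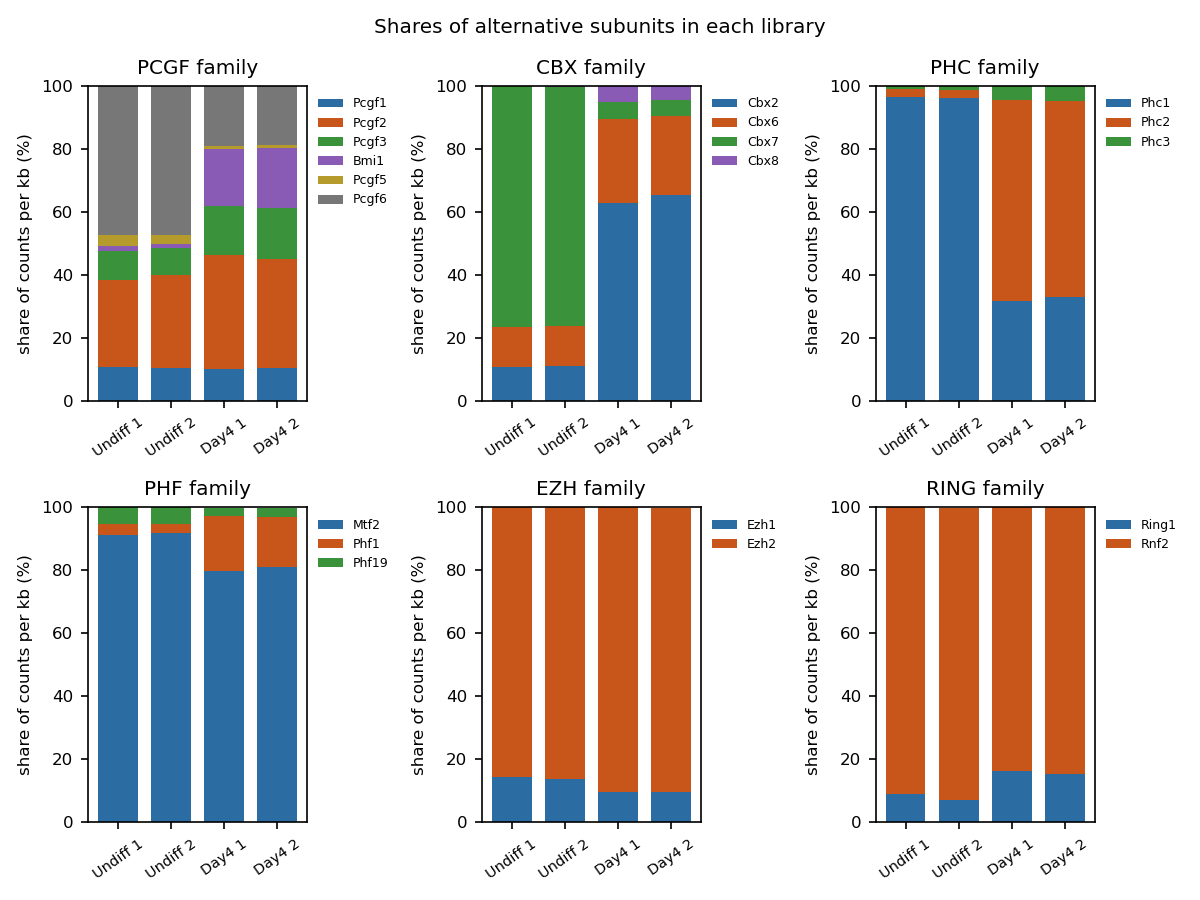
Share of each gene in the counts per kb of exon of its family (percent, stacked to 100) in each of the 4 libraries, for the PCGF, CBX, PHC, PHF (Polycomb-like), EZH and RING families. The leading gene per kb passes from Cbx7 to Cbx2, from Phc1 to Phc2 and from Pcgf6 to Pcgf2, while Mtf2, Ezh2 and Rnf2 lead in all 4 libraries.

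Variant PRC1 subunits showed the same kind of exchange between RYBP and YAF2, paralogues that occupy one position and stimulate the ubiquitin ligase. Rybp had 4638 and 4829 counts in Undiff and 2341 and 2293 in Day4 (-1.03, SE 0.05, edgeR adjusted p = 1.8e-10). Yaf2 had 402.2 and 404.4 in Undiff and 2570 and 2546 in Day4 (2.66, SE 0.06, edgeR adjusted p = 2.2e-13). Yaf2 was 18.9% and 18.4% of the pair per kb in Undiff and 74.7% and 74.9% in Day4. The decrease of Rybp lies on the fold threshold, and with scaling by library totals it was -0.96 and no longer a DEG.

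L3mbtl2, a subunit of the PCGF6 complex, fell from 7262 and 7306 counts to 1447 and 1455, 5.02-fold lower (-2.33, SE 0.05, edgeR adjusted p = 5.2e-14). Pcgf6 and L3mbtl2, which belong to the same complex, were thus both DEGs lower. The partners of PCGF1 were less uniform. Kdm2b, which brings PRC1 to unmethylated CG islands, fell by 0.43 on the log2 scale from 4684 and 4453 counts to 3482 and 3297 (SE 0.05, edgeR adjusted p = 2.4e-06). Bcor rose from 2766 and 2746 counts to 4997 and 5344 (0.91, SE 0.05, edgeR adjusted p = 9.7e-10), just short of the fold threshold. Exons of Kdm2b share 14.1% of their length with the counted genes Rnf34 and A930024E05Rik, and those of L3mbtl2 share 3.2% with Chadl.

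PR-DUB had the smallest median size of change of the groups (0.75 on the log2 scale), beside 0.83 in genes at or above the lowest member's mean. None of its 3 genes was a DEG, where 22.2% of all genes tested were DEGs higher and 20.6% lower. With 3 genes, this count cannot set the group apart from the background. Bap1, the deubiquitinase itself, had 5038 and 4743 counts in Undiff and 5751 and 5644 in Day4 (0.22, SE 0.05, edgeR adjusted p = 6.7e-04). Asxl1, which activates BAP1, fell from 6733 and 7189 counts to 3981 and 4294 (-0.75, SE 0.05, edgeR adjusted p = 1.2e-08). Asxl2 fell from 2792 and 3190 counts to 1730 and 1811 (-0.75, SE 0.06, edgeR adjusted p = 1.2e-07). The proportion of the paralogues overlapped between the states, with Asxl2 at 19.5% and 20.6% of the pair per kb in Undiff and 20.3% and 19.8% in Day4. Exons of Asxl2 share 1.3% of their length with 1110002L01Rik.

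The exchange between alternative subunits was measured within each library as the log2 ratio of counts per kb of 2 genes. This ratio does not depend on the scaling between libraries. Aebp2 over Jarid2 is counted among the pairs although its genes encode partners in PRC2.2, so it is no exchange of alternatives. Of 15 pairs, 14 had ratios that did not overlap between the states, 11 changed by at least 1 and 4 changed their order, Cbx2 over Cbx7, Cbx6 over Cbx7, Phc2 over Phc1 and Yaf2 over Rybp. Single genes did not overlap in 85.4% of cases, and the share for pairs of genes in general was not computed. Cbx8 over Cbx7 moved furthest, from -8.79 and -8.75 in Undiff to -0.15 and -0.22 in Day4, a change of 8.59 that left the pair near equality. Cbx2 over Cbx7 went from -2.86 and -2.80 to 3.51 and 3.68, a change of 6.42. Phc2 over Phc1 went from -5.34 and -5.23 to 1.02 and 0.93, a change of 6.26. These 3 ratios each join a gene that rose with one that fell, and their replicates differed by far less within a state than the states did.

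Other pairs moved less. Cbx6 over Cbx7 changed by 4.87, Yaf2 over Rybp by 3.70, Phc3 over Phc1 by 3.56, Bmi1 over Pcgf2 by 3.53, Phf1 over Mtf2 by 2.67, Aebp2 over Jarid2 by 1.88 and Ring1 over Rnf2 by 1.10. Pcgf5 over Pcgf3 changed by -2.44, Phf19 over Mtf2 by -0.73 and Ezh1 over Ezh2 by -0.65, each ratio being lower in Day4. Rbbp7 over Rbbp4 changed by 0.27, and Asxl2 over Asxl1 overlapped between the states. In each of the 14 pairs that did not overlap, the exact two-sided permutation test gave p = 0.333 (0.357 after Benjamini-Hochberg adjustment over the 15 pairs), which is the smallest p that 2 libraries against 2 allow.

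**Figure D4:**
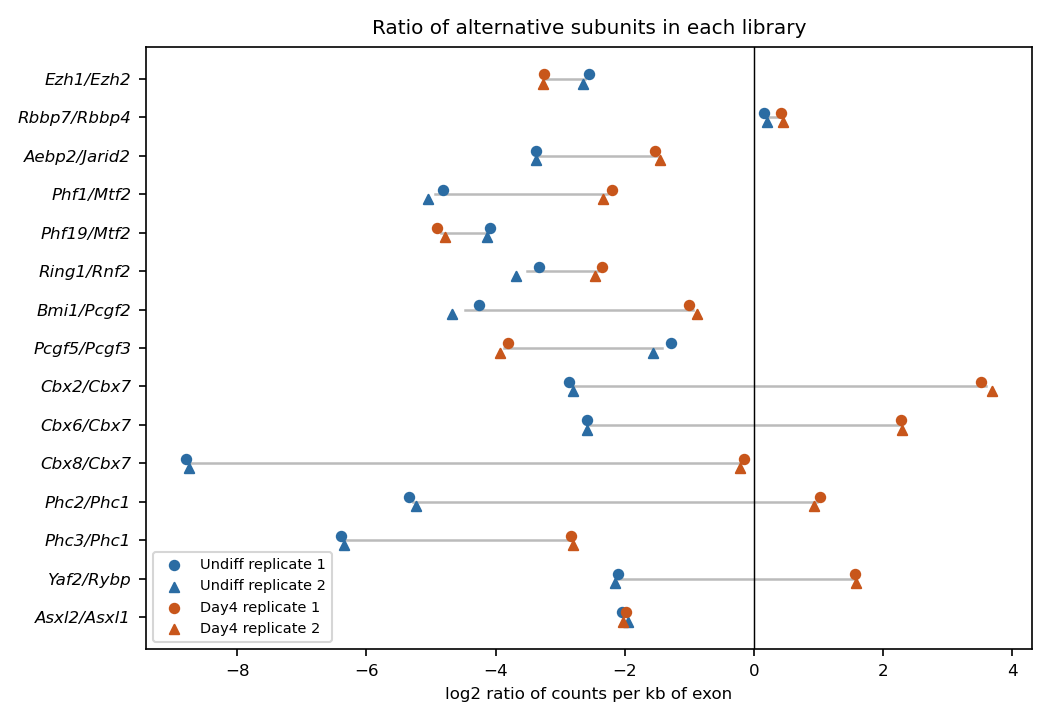
Log2 ratio of counts per kb of exon for 15 pairs of subunits in each library (blue Undiff, orange Day4, circles replicate 1, triangles replicate 2). A grey line joins the means of the states, and a vertical line marks equal level. The pairs are alternatives, except Aebp2/Jarid2, which are partners in PRC2.2. The ratios Cbx2/Cbx7, Cbx6/Cbx7, Phc2/Phc1 and Yaf2/Rybp cross the line, and Asxl2/Asxl1 overlaps between the states.

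The other genes of the pathway were taken as a list of 39 partners, such as further subunits of the same complexes, demethylases and deubiquitinases. Of these, 13 were DEGs higher (33.3%) and 7 were DEGs lower (17.9%), beside 22.2% and 20.6% of all genes tested. By adjusted p-value 19 rose (48.7%) and 18 fell (46.2%), close to the 48.7% and 41.6% of genes at or above the lowest member's mean, and the median log2 fold change was -0.02. Asxl3, the third ASXL paralogue, had 96.91 and 101.7 counts in Undiff and 1260 and 1200 in Day4 (3.63, SE 0.09, edgeR adjusted p = 6.1e-13), while Asxl1 and Asxl2 fell. Bcorl1, the paralogue of Bcor, had 179.2 and 174.7 counts in Undiff and 1444 and 1550 in Day4 (3.08, SE 0.08, edgeR adjusted p = 9.4e-13). At the other end, Epop, which binds PRC2.1 in ESCs and is counted under its older symbol E130012A19Rik, fell from 3571 and 4413 counts to 355.2 and 306.3 (-3.60, SE 0.10, edgeR adjusted p = 1.8e-12). Sfmbt2, which encodes a Polycomb protein with MBT repeats, fell from 1429 and 1646 counts to 308.2 and 301.7 (-2.33, SE 0.08, edgeR adjusted p = 1.6e-11).

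Genes that Polycomb is known to occupy in ESCs were read from a list of 22 developmental regulators. Of these, 11 were DEGs higher (50%) and 4 were DEGs lower (18.2%) in Day4, beside 22.2% and 20.6% of all genes tested, so the lower share is near the background. The list had summed counts of 1311 to 1318 in Undiff and 49685 to 50557 in Day4. A few genes held most of the Day4 sum, Meis2, Gata4 and Gata6 among them. By adjusted p-value 11 of the 22 rose, 5 fell and 6 did not pass, so the sum does not describe the list as a whole. Gata4, Gata6, Sox17 and Foxa2 stand on the endoderm list as well, and all rose. Meis2, a homeodomain factor, went from 34.39 and 44.27 counts to 14690 and 14200 (8.53, SE 0.08, edgeR adjusted p = 1.9e-16). Tbx5, a heart and forelimb T-box factor, had 919.2 and 1028 counts in Day4 and was at or under the floor of 3 counts in Undiff, with 1.042 and 0. Pax6, a neural and eye regulator, fell from 201.1 and 198.6 counts to 56.41 and 38.39 (-2.11, SE 0.18, edgeR adjusted p = 1.1e-07). Binding or histone marks were not measured in these libraries, and the relation of these genes to the subunits was not tested.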

How the data were processed

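TruSeq short-read RNA sequencing of 2 Undiff and 2 Day4 libraries of R1 mouse ESCs was analysed, with groups and replicate numbers taken from the sample labels. These also name a RiboZero kit, without tying it to a library. Reads were trimmed by the authors (cutadapt) and mapped by STAR 2.4.2a to mm10 (version from the submitters' processing notes), and they deposited raw counts of fragments per gene symbol from htseq-count. The methods say that strandedness was taken into account and give a strand-specific setting for the Direct RNA libraries, but none by name for TruSeq, so genes that overlap on opposite strands are uncertain. Lines for unassigned fragments were left out of library sizes. They held 7.5 to 13.2% (no feature) and 1.84 to 1.91% (ambiguous).

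Counts were normalized by TMM and tested in R 4.3.3 with edgeR 4.0.16 (glmQLFit with its newer dispersion method and glmQLFTest) over all 19891 genes with a count, with Benjamini-Hochberg adjustment. The biological coefficient of variation was 3.66%. Standard errors were taken as the size of the log2 fold change over the square root of F. Counting error alone sets a floor of 3 counts, 0.0629 to 0.0935 CPM by library. P-values rest on the spread between 2 replicates per state, which edgeR draws toward that of other genes (10.4 prior degrees of freedom). They do not come from each gene's own replicates alone. Replicates differed beyond sampling noise (chi-square per degree of freedom 5.71 in Undiff and 3.07 in Day4) and none was a copy. Levels per kb use exon lengths of GENCODE vM21 on GRCm38, the assembly behind mm10. The counting itself used another annotation. The fit was tested on simulated data.

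All 35 members are named, and of the other lists at most the 2 highest and 2 lowest log2 fold changes among DEGs whose mean reached 100. Afp (at 0 in Undiff) and the 4 regulators shared with the endoderm list were named beyond this rule, after their values were seen. The members and lists were chosen with earlier results of these data known. The alternatives were DESeq2 1.42.0 with the study's settings, its size factors, library totals, a low-count filter (filterByExpr), a replicate block, the legacy quasi-likelihood method (chosen after seeing the data) and each library left out.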

Additional observations from a re-analysis of the deposited data

How the results depend on the processing

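Of 350 values of the 35 members under 10 alternatives, 341 kept their direction and their side of an adjusted p-value of 0.05. The other 9 belong to 3 genes that passed in no setting. Rbbp4 was 0.02 with library totals. Aebp2 was -0.03 with DESeq2, -0.02 with its size factors and -0.02 with filterByExpr. Pcgf2 was 0.06 with library totals. Leaving out each library gave -0.05 to 0.08 for Aebp2, -0.08 to 0.07 for Pcgf2 and -0.05 to 0.05 for the ratio of Asxl2 to Asxl1. Under all alternatives 15 members rose and 17 fell by adjusted p-value, with 7 or 8 DEGs higher and 11 or 12 lower. Phf1 was no DEG with DESeq2 (0.99), its size factors (0.99), filterByExpr (1.00), without Undiff replicate 2 (0.99) or without Day4 replicate 1 (0.94), nor was Rybp with library totals (-0.96). The median log2 fold change of all genes with a mean of at least 5 was 0.032 with TMM, 0.101 with library totals and -0.007 with DESeq2 size factors. With the replicate number as a block, 8 members were DEGs higher and 12 lower, and 4414 and 4101 of all genes beside 4420 and 4101 without it. Deviations of same-numbered libraries correlated at -0.01 over 16472 genes, which gave no sign of pairing. With 2 libraries per state, this value cannot establish that same-numbered cultures had nothing in common. Depth limits Cbx8 most, with 16 reads in its lowest library and an SE of 0.20. With 2 libraries per state, the exact permutation test of a ratio cannot reach 0.05.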
